A study of Rattus norvegicus with 12 samples.

Results

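Transcript levels of the fibroblast growth factors (FGFs) and FGF receptors were followed in cultured heart muscle cells in which the orphan nuclear receptor NR4A2 was overexpressed. The members were chosen by gene name: Fgf1, Fgf2, Fgf9, Fgf12, Fgf13, Fgf16 and the receptor genes Fgfr1, Fgfr2, Fgfr3 and Fgfr4, which make 10 of the 17301 gene names and 15 of the 18752 transcripts measured. Fgfr2 had 6 transcripts, and the other 9 genes had 1 each. The cells were adult rat ventricular myocytes (ARVMs) from male Sprague Dawley rats, plated on laminin and kept in a serum-free medium that held insulin, transferrin, selenium and the contraction inhibitor 2,3-butanedione monoxime. They received Ad-h-NR4A2, an adenovirus that carries human NR4A2 driven by the CMV promoter, or Ad-GFP, an adenovirus that carries enhanced green fluorescent protein. Both were given at a multiplicity of infection of 50, and RNA was taken 48 h later. There were 6 Ad-GFP and 6 Ad-h-NR4A2 samples, numbered 24 to 29 in each group, and the study describes them as 6 experiments on cells of different rats. No sample without virus was analysed here, so the level before transduction is unknown, and a viral promoter sets the dose of NR4A2 in every transduced cell.

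FGF1, FGF2, FGF9 and FGF16 are signalling ligands. They bind FGF receptors on the cell surface together with heparan sulfate, and the receptors, which are tyrosine kinases, pass the signal through adaptor proteins to the RAS-MAP kinase cascade. FGF12 and FGF13 belong to a separate branch that stays inside the cell, where these proteins bind voltage-gated sodium channels. In the heart, FGF9 and FGF16 are known for their part in the growth of the developing myocardium, and FGF2 for its effects on hypertrophy and on survival after ischaemia.

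The promoters of the 4 members whose level changed beyond both limits used below, Fgf1, Fgf9, Fgf16 and Fgfr3, are shown because NR4A2 is a DNA-binding factor. Each runs 5′ to 3′ on the gene's own strand from 250 bases before to 50 bases after the RefSeq start, in build GRCr8. Their positions are chr18:30961344-30961643 on the minus strand for Fgf1, chr15:36327108-36327407 on the plus strand for Fgf9, chrX:74882745-74883044 on the plus strand for Fgf16 and chr14:81227160-81227459 on the minus strand for Fgfr3. Capitals mark a GC box (GGGCGG) in Fgf1 and Fgfr3, the last 7 letters of the NR4A monomer site (AAGGTCA) in Fgf9 and a TATA box (TATAAA) in Fgf16, on either strand.
Fgf1: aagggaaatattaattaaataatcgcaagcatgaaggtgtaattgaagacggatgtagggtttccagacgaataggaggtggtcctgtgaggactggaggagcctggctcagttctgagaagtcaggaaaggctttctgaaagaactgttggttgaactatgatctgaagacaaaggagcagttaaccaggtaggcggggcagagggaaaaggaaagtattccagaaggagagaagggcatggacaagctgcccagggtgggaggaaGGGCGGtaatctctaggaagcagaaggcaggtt
Fgf9: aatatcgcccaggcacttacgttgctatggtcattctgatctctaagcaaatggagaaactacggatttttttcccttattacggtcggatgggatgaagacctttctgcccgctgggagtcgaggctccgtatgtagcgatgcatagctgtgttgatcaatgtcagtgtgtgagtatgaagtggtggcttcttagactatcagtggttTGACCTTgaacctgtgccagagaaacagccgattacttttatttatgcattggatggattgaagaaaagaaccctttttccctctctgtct
Fgf16: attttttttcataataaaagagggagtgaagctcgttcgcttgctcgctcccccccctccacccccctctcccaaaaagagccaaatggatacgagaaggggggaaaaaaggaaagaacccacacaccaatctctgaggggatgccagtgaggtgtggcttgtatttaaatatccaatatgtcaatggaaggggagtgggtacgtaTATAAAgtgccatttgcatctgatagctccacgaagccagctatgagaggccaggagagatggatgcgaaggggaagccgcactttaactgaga
Fgfr3: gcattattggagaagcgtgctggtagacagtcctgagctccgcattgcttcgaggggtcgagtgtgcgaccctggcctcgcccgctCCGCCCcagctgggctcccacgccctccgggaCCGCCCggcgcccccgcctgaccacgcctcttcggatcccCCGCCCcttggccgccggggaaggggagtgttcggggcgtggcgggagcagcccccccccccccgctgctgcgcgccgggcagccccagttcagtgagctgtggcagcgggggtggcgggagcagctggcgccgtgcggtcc

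The full NR4A monomer site, AAAGGTCA, was searched on both strands of the promoters of the 9 members that had one in the RefSeq table, and it was in none of them. It was in 1.43% of all 33469 rat promoters of this length. The 7-letter form AAGGTCA, which lies within the full site, was in 4.61% of all promoters and, among the members, only in Fgf9, where it stood on the opposite strand. The TATAAA letters were in 14.2% of all promoters and in Fgf16. GGGCGG was in 33.1% of all promoters, in those of Fgf1, Fgfr2, Fgfr3 and Fgfr4 and in the Fgf12 promoter at chr11:85501697-85501996. A further Fgf12 promoter, at chr11:85801508-85801807, held none of these motifs. The promoter of Fgfr3 held 31 CG dinucleotides and 74.7% G and C, against 5 CG dinucleotides and 48.3% in that of Fgf1. These are matches of letters in a short window, and say nothing of binding.

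Levels were given as FPKM, the fragments of a transcript scaled to its length and to the mapped fragments of the sample. This puts genes on a common scale, but comparisons between genes depend on the transcript models, such as 624 nt for Fgf16 and 3187 nt for Fgfr3. Level orders, sums and shares over genes are therefore approximate. The fragment total behind each sample, deduced from the steps of the low values, was 18800000 to 28000000 in the Ad-GFP group and 21600000 to 27300000 in the Ad-h-NR4A2 group. The rat Nr4a2 transcript, which checks the labels, rose from 0.884 ± 0.309 FPKM (SD, n = 6) to 524 ± 70.3 FPKM (n = 6), a value that includes human transgene RNA as far as it aligned to the rat gene. Summed FPKM of 5 cardiomyocyte markers was 17594 to 22757 in Ad-GFP and 15612 to 19211 in Ad-h-NR4A2, so the defining markers of the labelled cell type were present. Summed markers of other cells were far lower, at 9.04 to 30.1 against 5.80 to 26.4 for fibroblasts, 4.96 to 16.1 against 3.82 to 15.1 for endothelium and 11.7 to 24.2 against 8.75 to 20.9 for smooth muscle and pericytes. Summed macrophage markers rose from 6.83 to 17.9 in Ad-GFP to 37.2 to 48.8 in Ad-h-NR4A2, and this rise was that of Csf1r (10.1 to 40.2 FPKM), while Cd68 was at 0.463 and 0.482 FPKM and Lyz2 at 1.69 and 1.59 FPKM. By the limits given below, Col3a1, Myh7 and Myh11 were the other markers called, all as lower. Myh6 (1152 to 781 FPKM, adjusted p = 0.00011 by limma) and Tnnt2 (7189 to 5992 FPKM, adjusted p = 0.0048) also fell, by less than 1.5-fold. In bulk RNA, fewer cells of a type and less RNA per cell cannot be told apart, and the part that any such cells had in the results below was not tested.

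The 10 genes spanned a wide range of levels. In Ad-GFP cells the order by mean FPKM was Fgf1, Fgf13, Fgf12, Fgfr1, Fgf16, Fgf9, Fgf2, Fgfr3, Fgfr2 and Fgfr4. The ranges of neighbours in this order did not overlap between Fgf1 and Fgf13, between Fgf9 and Fgf2 and between Fgfr3 and Fgfr2. Fgfr1 and Fgf16 were not separated, with Fgfr1 the higher in 3 of 6 samples. In Ad-h-NR4A2 cells the order was the same except that Fgfr3 stood above Fgf2, with no overlap of their ranges. Fgf1 no longer stood clear of Fgf13 there and was the higher in 4 of 6 samples.

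**Figure D1:**
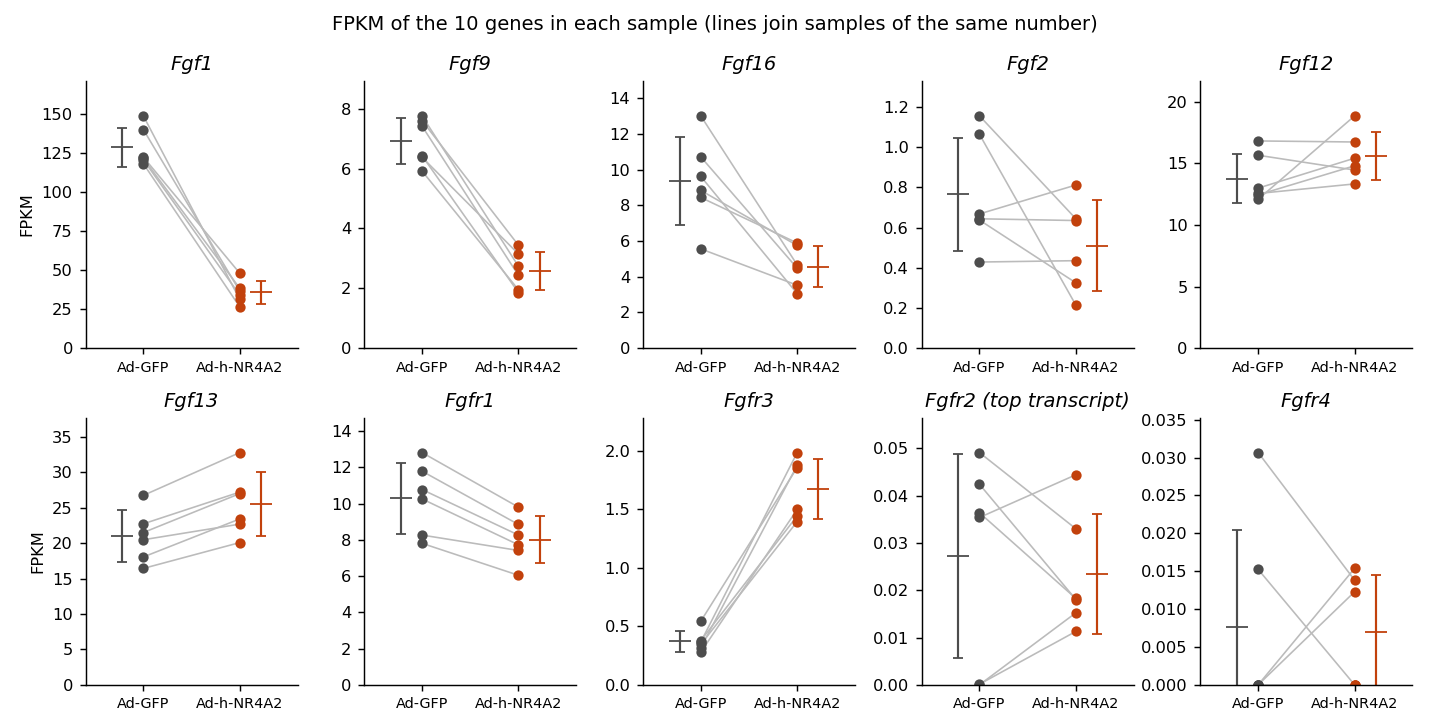
Each panel plots FPKM of 1 gene in the 6 Ad-GFP and 6 Ad-h-NR4A2 samples on a linear axis from 0, with grey lines joining samples of the same number and horizontal bars giving the mean ± SD. The panel of Fgfr2 shows its most abundant transcript. Fgf1, Fgf9 and Fgfr3 separate completely between the groups, Fgf16 does so but for 1 low Ad-GFP sample, and Fgfr2 and Fgfr4 stay below 0.05 FPKM in every sample.

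Of the 10 genes, 9 had a value above 0 in all 12 samples and were tested with limma across 10950 genes. Fgfr2 was among them only through a residue of 1.6e-09 FPKM, or 0 fragments, in Ad-GFP sample 28, and was not tested when values under 1e-06 were taken as 0. A gene counted as called where its means differed by at least 1.5-fold and its p, adjusted by the Benjamini-Hochberg method, was below 0.05. By these limits 4 members were called, Fgf1, Fgf9 and Fgf16 as lower and Fgfr3 as higher in Ad-h-NR4A2. Over all genes tested 15.2% were called, 7.24% as lower and 7.94% as higher. The median log2 fold change was −0.35 for the 9 members and −0.02 for all genes. The 4 called members were also the only ones with an adjusted p below 0.05 whatever the fold, a group that took in 40.9% of all genes.

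Of the signalling ligands, Fgf1, the acidic FGF that can bind all FGF receptors, was the most abundant and had the largest fall of the members. Its FPKM in the Ad-GFP samples was 122, 118, 121, 149, 122 and 140, and in the Ad-h-NR4A2 samples of the same order it was 48.0, 26.4, 34.0, 31.3, 38.3 and 36.6. Every Ad-h-NR4A2 sample was well below the lowest Ad-GFP sample. The mean fell from 129 ± 12.7 to 35.7 ± 7.32 FPKM (SD, n = 6 each), or −1.86 as a log2 fold change (SE 0.12, 95% interval −2.12 to −1.61) with an adjusted p of 5.9e-08 by limma. Between 2266 and 4018 fragments stood behind each Ad-GFP value and between 698 and 1061 behind each Ad-h-NR4A2 value. The exact permutation test over the 12 samples gave p = 0.00216 (two-sided), the smallest this design can give. In samples of the same number, the level with Ad-h-NR4A2 was 0.210 to 0.392 of that with Ad-GFP. The Fgf1 transcript measured was 1185 nt long, and its Rn5 locus was a bundle shared with Arhgap26, LOC100911367, Nr3c1 and Spry4, so the file gives no interval of its own.

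Fgf9, a ligand that favours the c splice forms of its receptors and FGFR3, fell as well. The 6 Ad-GFP values were 6.38, 7.76, 6.43, 7.42, 7.60 and 5.92 FPKM, and the Ad-h-NR4A2 values were 3.14, 2.73, 1.86, 2.43, 3.44 and 1.95 FPKM. The groups did not overlap. The mean went from 6.92 ± 0.769 to 2.59 ± 0.636 FPKM (n = 6 each), or −1.41 as a log2 fold change (SE 0.15, limma adjusted p = 5.2e-06), on 122 to 180 and 39 to 77 fragments per sample. In Rn5 the locus of Fgf9 spans chr15:42177371-42217419.

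Fgf16, a ligand of the same subfamily as Fgf9, fell less. Its FPKM was 8.44, 8.83, 9.62, 13.01, 5.56 and 10.7 in the Ad-GFP samples and 5.89, 5.75, 3.05, 4.66, 3.52 and 4.48 in the Ad-h-NR4A2 samples. The groups overlapped, since Ad-GFP sample 28 lay below Ad-h-NR4A2 samples 24 and 25, but the level was lower in 6 of 6 pairs of the same number. The mean fell from 9.36 ± 2.48 to 4.56 ± 1.14 FPKM (n = 6 each). The log2 fold change was −1.02 (SE 0.20, 95% interval −1.45 to −0.58), with an adjusted p of 0.0012 by limma and p = 0.00649 in the exact permutation test. Its Rn5 locus was a bundle with 7 other genes, among them Atp7a and Pgk1.

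Fgf2, the basic FGF, was the scarcest of the signalling ligands among the members and did not pass the test. It stood at 0.429 to 1.16 FPKM in Ad-GFP (median 0.656) and at 0.214 to 0.812 FPKM in Ad-h-NR4A2 (median 0.535), and was lower in 4 of 6 pairs. The log2 fold change was −0.53 (SE 0.27, 95% interval −1.12 to 0.06, adjusted p = 0.14 by limma), an interval that allows a level of 0.459 to 1.04 of that in Ad-GFP. With 8 to 25 and 5 to 16 fragments per sample, the counts limit its precision.

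Among these 3 ligands the sizes of the falls kept one order within pairs. Fgf1 fell more than Fgf9 in 6 of 6 pairs, by 0.45 ± 0.23 on the log2 scale (mean ± SD), and Fgf9 fell more than Fgf16 in 6 of 6 pairs, by 0.39 ± 0.28. Summed over Fgf1, Fgf2, Fgf9 and Fgf16, the member ligands went from 146 ± 14.7 to 43.4 ± 7.82 FPKM (n = 6 each). Fgf1 made up 88.3% of the sum in Ad-GFP and 82.1% in Ad-h-NR4A2. Ligands outside the members, such as Fgf7 and Fgf18, are not in this sum.

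The intracellular factors Fgf12 and Fgf13, which bind cardiac sodium channels, were not called. Fgf12 was at 12.1 to 16.8 FPKM in Ad-GFP (median 12.8) and at 13.3 to 18.9 FPKM in Ad-h-NR4A2 (median 15.1). The log2 fold change was 0.18 (SE 0.10, 95% interval −0.03 to 0.40, adjusted p = 0.16 by limma), and the groups overlapped. Its Rn5 locus is chr11:78947043-79210052.

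Fgf13 was at 16.4 to 26.8 FPKM in Ad-GFP (median 21.0) and at 20.1 to 32.8 FPKM in Ad-h-NR4A2 (median 25.2). Its groups overlapped too, but each Ad-h-NR4A2 sample was above the Ad-GFP sample of the same number, by 1.11 to 1.30 times. The unpaired log2 fold change was 0.28 (SE 0.13) with an adjusted p of 0.095, and with the sample number as a block the same change had an SE of 0.036 and an adjusted p of 0.00013 by limma. The block gave 59.4% of all genes an adjusted p below 0.05 whatever the fold, and the change of Fgf13 stayed below 1.5-fold. Its Rn5 locus is chrX:142078583-142189620.

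The receptors overlapped between the groups in their sum and not in the shares of Fgfr1 and Fgfr3. Their summed FPKM was 10.7 ± 2.02 in Ad-GFP and 9.74 ± 1.25 in Ad-h-NR4A2 (n = 6 each). Fgfr1 made up 95.7% ± 0.675 of the sum in Ad-GFP and 82.0% ± 3.83 in Ad-h-NR4A2, and Fgfr3 went from 3.49% ± 0.692 to 17.5% ± 3.62. The highest Fgfr3 share in Ad-GFP was 4.37% and the lowest in Ad-h-NR4A2 was 12.7%.

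**Figure D2:**
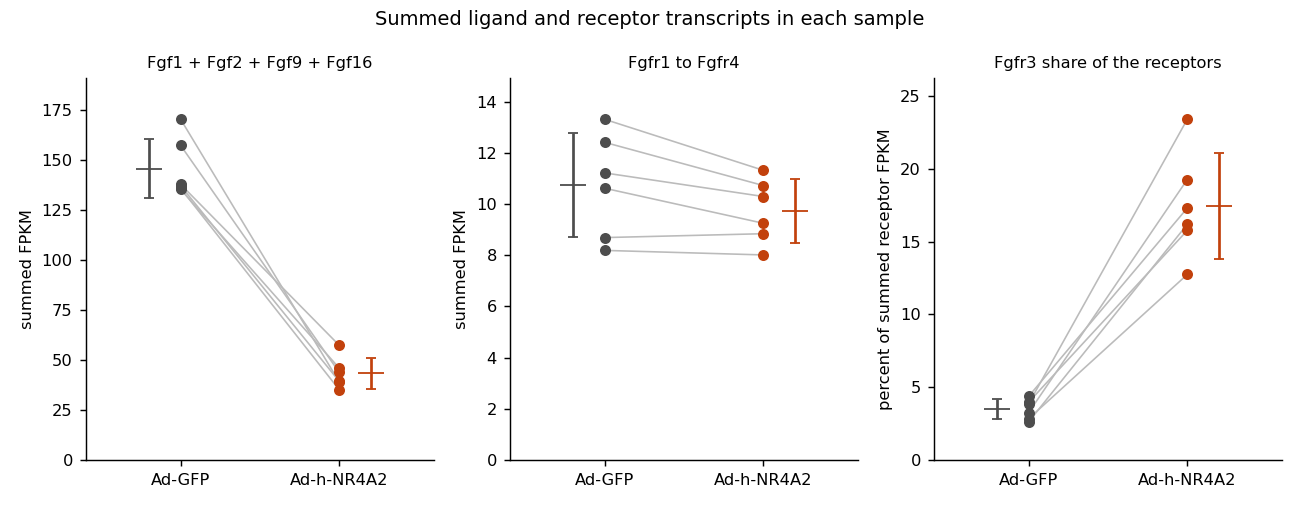
The left and middle panels plot summed FPKM of the 4 signalling ligands and of the 4 receptors, and the right panel plots Fgfr3 as a percent of the summed receptor FPKM, in each sample, with the mean ± SD (n = 6) beside the points and lines joining samples of the same number. The ligand sum and the Fgfr3 share separate between the groups, whereas the receptor sums overlap.

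Fgfr3, which encodes a receptor known as a brake on bone growth and which binds FGF9 well, was the one member called as higher. It was at 0.345, 0.317, 0.378, 0.365, 0.279 and 0.543 FPKM in the Ad-GFP samples and at 1.39, 1.88, 1.44, 1.98, 1.498 and 1.86 FPKM in the Ad-h-NR4A2 samples. The groups were far apart, and the lowest Ad-h-NR4A2 sample, at 1.39 FPKM, was well above the highest Ad-GFP sample, at 0.543 FPKM. The ratio of means was 4.52, from 0.371 ± 0.0914 to 1.68 ± 0.258 FPKM (n = 6 each), and the log2 fold change on FPKM + 0.1 was 1.92 (SE 0.14, 95% interval 1.62 to 2.23, adjusted p = 2.4e-07 by limma). At these low levels the log2 value depends on the pseudocount, and was 0.96 with 1 and 2.16 with 0.01. Between 18 and 46 fragments stood behind an Ad-GFP value and between 91 and 155 behind an Ad-h-NR4A2 value, and the rise was 3.42 to 5.92 times within pairs. In Rn5 the locus of Fgfr3 spans chr14:82962626-82976486. Fgf1, Fgf9 and Fgfr3 were the 3 tested members whose groups did not overlap, which was the case for 21.5% of all genes.

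Fgfr1, the main FGF receptor of these cells by transcript level, was at 7.81 to 12.8 FPKM in Ad-GFP (median 10.5) and at 6.04 to 9.80 FPKM in Ad-h-NR4A2 (median 7.99). The groups overlapped, and each Ad-h-NR4A2 sample was at 0.750 to 0.897 of the Ad-GFP sample of the same number. The unpaired log2 fold change was −0.35 (SE 0.14, 95% interval −0.64 to −0.06) with an adjusted p of 0.056, and with the sample number as a block it had an SE of 0.047 and an adjusted p of 0.0002 by limma. It stayed below 1.5-fold in both. Its Rn5 locus is chr16:70925604-70965251.

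Fgfr2 was close to the limit of detection. Over its 6 transcripts the Ad-GFP samples held 5 to 10 fragments each and 47 in all, and the Ad-h-NR4A2 samples held 2 to 9 each and 26 in all. The summed level was 0.0763 ± 0.00939 against 0.0427 ± 0.0225 FPKM (n = 6 each), with overlapping groups and an adjusted p of 0.056 by limma (log2 fold change −0.32). The ratio of these means was 0.560. The log2 value understates it, since the pseudocount of 0.1 is larger than any of the summed values. The most abundant transcript alone gave a log2 fold change of −0.03 (SE 0.14, 95% interval −0.34 to 0.28, adjusted p = 0.88). Its share of the gene was 53.4% to 55.6% in the Ad-h-NR4A2 samples and almost 0 in Ad-GFP samples 28 and 29, where the few fragments were assigned to longer transcripts. The mean share differed by 17.6 percentage points between the groups (exact permutation p = 0.433). Fgfr4 had 3 fragments in all in each group, at most 2 in a sample. It was listed at 0 in 4 Ad-GFP and 3 Ad-h-NR4A2 samples, where a count of 0 allows up to 3 fragments. Having zeros, it was left out of the main fit, and without that filter its log2 fold change was −0.005.

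**Figure D3:**
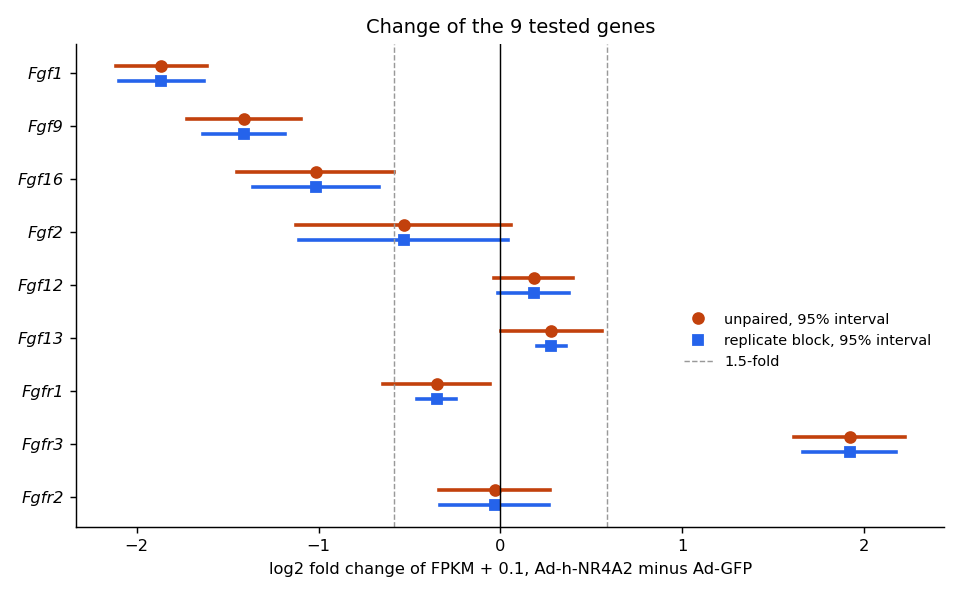
The log2 fold change of FPKM + 0.1 (Ad-h-NR4A2 minus Ad-GFP, n = 6 each) is plotted for the 9 tested genes, with 95% intervals from the unpaired fit (circles) and from the paired fit, blocked on sample number (squares), and dashed lines at 1.5-fold. Fgf1, Fgf9 and Fgf16 lie to the left and Fgfr3 to the right of these lines, and the block narrows the intervals of Fgf13 and Fgfr1.

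For each called member, the 3 nearest genes were taken from 8978 genes with a mean of at least 1 FPKM. Nearness was the root mean square difference over the 12 samples of log2 values centred on the Ad-GFP mean. With this centring it depends largely on the size of the group change, and does not show variation in step between samples. The genes nearest to Fgf1 were Rcor2 (0.14), Htr2a (0.19) and Pcp4l1 (0.21). The nearest to Fgf9 were Elovl7 (0.14), Abcc8 (0.19) and Fzd2 (0.22). Those of Fgf16 were Fam46b (0.21), Rgl1 (0.23) and Arrdc3 (0.26), and those of Fgfr3 were Lmo7, Slc25a17 and Cotl1 (all 0.19). Htr2a, at 0.755 FPKM in Ad-h-NR4A2, and Cotl1, at 0.992 FPKM in Ad-GFP, passed the 1 FPKM limit only through the other group.

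Of 88 other genes of the FGF pathway, 80 were in the files, 57 were tested and 14 were called, 6 as higher and 8 as lower. This is 24.6% of those tested, beside 15.2% of all genes, and their median log2 fold change was −0.15. Like the members, the list was chosen with earlier results of these data known, and it was not tested as a set. These shares are therefore a description only. Among co-receptors, the heparan sulfate proteoglycan Sdc2 rose from 25.5 ± 1.22 to 44.6 ± 3.57 FPKM (log2 0.80), and Gpc1, a glypican that binds FGFs, fell from 150 ± 17.0 to 97.7 ± 11.6 FPKM (log2 −0.62). Among 8 tested enzymes of heparan sulfate, the 2-O-sulfotransferase Hs2st1 rose (5.36 ± 0.702 to 10.2 ± 0.750 FPKM, log2 0.93). The 6-O-sulfotransferase Hs6st1 (16.4 ± 1.82 to 10.9 ± 1.61 FPKM, log2 −0.59) and Sulf2, which removes 6-O-sulfates (6.39 ± 0.607 to 4.05 ± 0.720 FPKM, log2 −0.66), both fell.

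None of the 17 tested adaptors and cascade kinases was called, and 9 of them had an adjusted p below 0.05, beside 15.2% and 40.9% of all genes. Of the 10 tested genes of the feedback list 4 were called, or 40.0%, beside 15.2% of all genes. It held Spry1, a Sprouty inhibitor of receptor tyrosine kinases, which rose from 1.97 ± 0.513 to 3.88 ± 0.658 FPKM (log2 0.97). Spred1, an inhibitor of the RAS pathway, fell from 3.92 ± 0.397 to 1.86 ± 0.293 FPKM (log2 −1.04). Dusp6, Spry2, Spry4, Spred2, Spred3 and Flrt3 were not called. The same list held FLRT proteins, which bind FGF receptors and are not known as feedback inhibitors. Of these Flrt2 rose (1.30 ± 0.471 to 2.31 ± 0.704 FPKM, log2 0.80) and Flrt1 fell (0.467 ± 0.194 to 0.225 ± 0.101 FPKM, log2 −0.80). Of 7 transcriptional targets, Myc rose (24.9 ± 4.82 to 42.0 ± 3.78 FPKM, log2 0.77) and Etv5, an ETS factor induced by FGF signalling, fell (3.49 ± 1.203 to 1.59 ± 0.417 FPKM, log2 −1.05). Etv1, Etv4, Egr1, Fos and Ccnd1 were not called.

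Of the partners of FGF12 and FGF13, the sodium channel gene Scn1a fell from 3.31 ± 0.953 to 1.03 ± 0.216 FPKM (log2 −1.56). Adjusted p-values of the pathway genes named here as changed ran from 1.5e-07 for Sdc2 to 0.019 for Flrt1 by limma (n = 6 each). Hs6st1 was at a ratio of 0.666, just past the 1.5-fold limit, and was no longer called when any 1 of 6 particular samples was left out. With the block 16 pathway genes were called, with Fgf18 and Spry4 added as lower, and 16.7% of all genes were called in that fit.

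**Figure D4:**
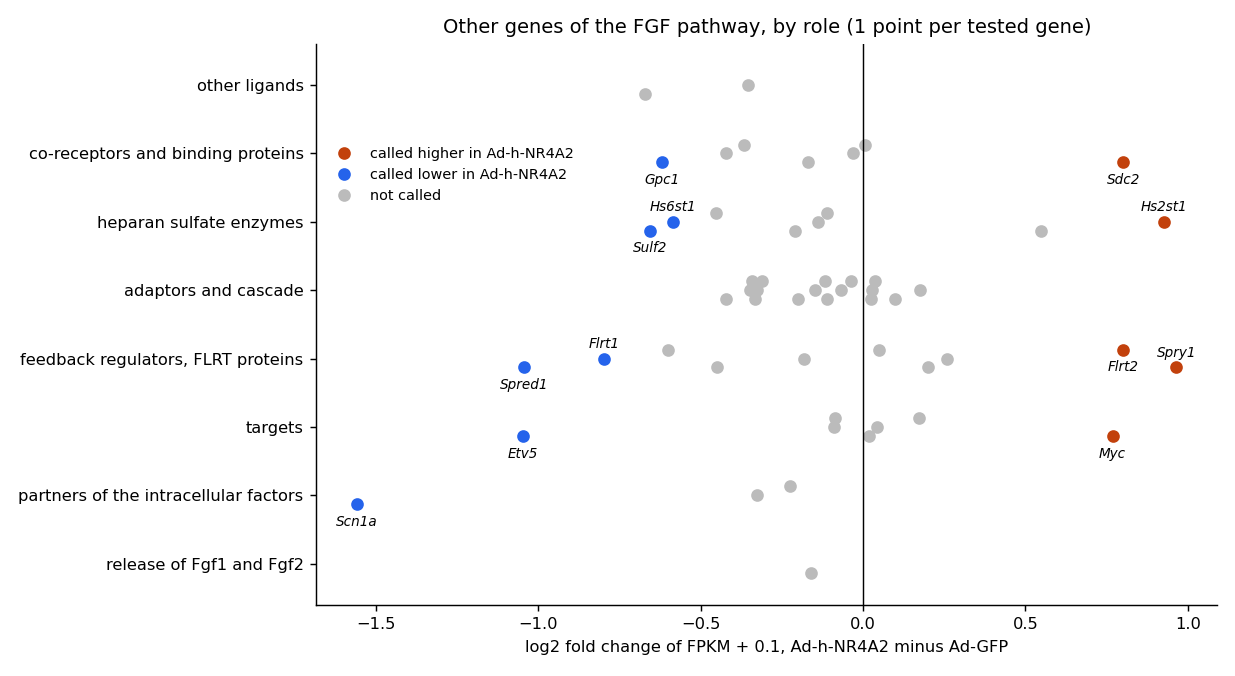
Each point is the log2 fold change of FPKM + 0.1 (Ad-h-NR4A2 minus Ad-GFP, n = 6 each) of 1 of 55 tested pathway genes, set in rows by role. Coloured points mark 12 called genes, 5 higher and 7 lower, and the row of adaptors and cascade kinases holds no called gene.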

How the data were processed

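RNA of ARVMs was sequenced from stranded mRNA libraries (paired end, 12 libraries in 1 pool). Per the labels and the study's methods, the authors aligned reads with STAR to Rn5 and estimated transcript levels with Cufflinks, and the deposited values are FPKM per RefSeq transcript, 1 table per sample. Whether counting used strand is not given in the sources used here, and FPKM depends on how fragments are divided among transcripts.

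Members and gene lists were chosen with earlier results of these data known. Groups came from the sample titles. The transcript with the highest mean FPKM stood for each gene name, genes above 0 in all 12 samples were kept, and log2(FPKM + 0.1) was fitted with limma 3.58.1 (trend) in R 4.3.3, with Benjamini-Hochberg adjustment over 10950 genes. Fold changes are on this scale, which understates those of low genes. Exact two-sided permutation tests went through all 924 assignments with NumPy 2.4.6. SciPy 1.17.1 checked this code and ran the tests of the Fgfr2 share without a sample. The text names all members, the called pathway genes (2 of the 14 are not reported here), Nr4a2 as the check, and the 3 genes nearest to each called member. The code was tested on simulated data.

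Samples of the same number deviated together (correlation 0.35 to 0.62 over 6 pairs, each best with its own number), so the numbers were taken to pair the samples, and a fit with the number as a block was an alternative. What the number marks is not in the labels. The main fit was unpaired, as in the study. Depth was recovered from FPKM steps: 100.0% of low values (up to 6 fragments, transcripts of at least 800 nt, tolerance 0.05) came out whole. Other alternatives were the pseudocount, filters, TPM scaling, quantile normalization, fits without trend, summed transcripts, fold limits and leaving out each sample. One more, values under 1e-06 taken as 0, was chosen after seeing the data. Promoters are from RefSeq (GRCr8), for 9 of 10 members.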

Additional observations from a re-analysis of the deposited data

Results flagged for a closer look

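Fgfr3 in Ad-GFP sample 29 was at 0.543 FPKM, apart from the other 5 Ad-GFP samples at 0.279 to 0.378 FPKM (median 0.345). Its gap to the nearest sample, as a share of the group's range, just passed the 95% limit of Dixon's test for 6 samples, and chance flags about 1 in 20 groups, of which 48 were checked. The sample lies toward the Ad-h-NR4A2 values but below all of them, and without it the call of Fgfr3 held.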

How the results depend on the processing

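Fgf1, Fgf9, Fgf16 and Fgfr3, 4 members, were called under every alternative run, those without a sample included. Fgfr3 averaged 0.371 FPKM in Ad-GFP and 1.68 FPKM in Ad-h-NR4A2. It passed the filter of a mean of 1 FPKM only through its Ad-h-NR4A2 level, so that run is no support for its call. The count of called pathway genes was 12 to 15 without a sample. It was 4 with a fold limit of 2, for which no share over all genes is given here. With no fold limit it was 27 of the 57 tested, beside 40.9% of all genes. Without the filter on low values 17 were called, with Fgf10, Scn3a and Scn9a added. That run tested more genes, 17301 in all, with 988 called as higher and 781 as lower. Its count cannot be set against that of the main fit. With the sample number as a block, the pairing brought Fgf13 (0.28) and Fgfr1 (−0.35) below an adjusted p of 0.05, both still under 1.5-fold, and moved no other member across it. Fgfr1 (−0.35, adjusted p = 0.047) also passed among genes with a mean of 1 FPKM or more, and on the TPM scale (−0.37, adjusted p = 0.045). Leaving out 1 sample gave log2 changes of 0.21 to 0.35 for Fgf13, past the threshold without Ad-GFP 27 (adjusted p = 0.035) or Ad-h-NR4A2 28 (0.042), and of −0.42 to −0.27 for Fgfr1, past it without Ad-GFP 24 (0.034), Ad-GFP 25 (0.023) or Ad-h-NR4A2 26 (0.034).

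Fgfr2 changed sign with a pseudocount of 0.01 (0.099, and 0.081 for its second transcript), and ranged from −0.098 to 0.018 without a sample, its second transcript from −0.080 to 0.016 and another from −0.098 to 3.8e-10. Under quantile normalization 2 further Fgfr2 transcripts turned to −0.00048 and −0.0011. The share of its most abundant transcript differed by 10.2 to 21.3 points without a sample, lowest without Ad-GFP 28 (10.2) or 29 (10.3). Leaving out transcripts with a mean FPKM under 0.1 gave no value for this share. The cause of these changes was not tested. Of the pathway genes named, Hs6st1 was lost without any of 6 samples (Ad-GFP 24, 26 or 28, Ad-h-NR4A2 25, 27 or 29) and Gpc1 without Ad-GFP 28. Fgf2, Fgfr2 and Fgfr4 rest on few fragments, so small changes were not detectable at this depth.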

Other observations

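Among the other FGF ligands, Fgf10, a ligand best known from the developing lung and limbs, was listed at 0 in all 6 Ad-GFP samples. The Ad-h-NR4A2 samples held 1, 1, 1, 3, 4 and 9 fragments, 19 in all, at 0.0749 to 0.799 FPKM. Of these fragments 9 were in sample 29. Having zeros, it was left out of the main fit. Without the filter on low values its log2 fold change was 1.64 (SE 0.37, adjusted p = 0.0073 by limma), which rests on these few fragments.

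Fgf7, a ligand of the b splice form of FGFR2, was at 18.0 ± 6.79 FPKM in Ad-GFP and 14.1 ± 5.11 FPKM in Ad-h-NR4A2 (n = 6 each, adjusted p = 0.34 by limma, 0.0059 with the sample number as a block). Fgf18, which signals through FGFR3 in cartilage, was at 4.39 ± 2.15 and 2.49 ± 0.626 FPKM (adjusted p = 0.089 by limma, 0.0073 with the block). The block gave 59.4% of all genes an adjusted p below 0.05 whatever the fold. Fgf7, at a ratio of 0.782, was called in neither fit, and Fgf18 only with the block.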
